A study of Bos taurus with 6 samples.

Results

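G protein beta and gamma subunits were measured in blood drawn from the jugular vein of 6 female cattle. The groups were 3 animals transgenic for fat-1 and 3 wild type animals, each on an array of its own. The transgene comes from the nematode Caenorhabditis elegans and encodes a desaturase that makes omega-3 from omega-6 polyunsaturated fatty acids. The age was 3.5 years for fat-1 replicate 1 and 3 years for all others. The sources used here do not give the promoter of the transgene or whether the transgenic animals derive from 1 founder or clone. The set comprises 10 genes of the 15846 gene symbols on the array, the gamma subunits GNG4, GNG2, GNG5, GNG7, GNG10 and GNG11 and the beta subunits GNB1, GNB2, GNB4 and GNB5. They hold 26 of the 43653 probes besides controls. GNG4 was chosen by its difference between these same groups, and the other 9 genes by their family, so differences of the subunits are given as a description, with no p-value.

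A heterotrimeric G protein couples a receptor in the plasma membrane to effectors inside the cell. Its beta subunit, a propeller of WD repeats, and its small gamma subunit form a dimer that does not come apart under physiological conditions and parts from the alpha subunit when the receptor is activated. The free dimer acts on phospholipase C-beta, phosphoinositide 3-kinase gamma, adenylyl cyclases and ion channels, and in leukocytes it carries the chemokine signal for migration. Gamma subunits are anchored by a lipid, geranylgeranyl for most of them and farnesyl for GNG11. GNG4 is best known from the nervous system, GNG2, GNG5 and GNG10 are widely expressed, and GNG11 is abundant in platelets.

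GNG4 was read by 3 probes of 60 bases, all placed on the minus strand of chromosome 28 of the build Btau_3.1 named in the file headers. Probe 1 begins at base 2369 of the GNG4 transcript and lies at chr28:6778627-6778686. Probe 2 begins at base 3925 and lies at chr28:6777071-6777130, and probe 3 begins at base 4079 and lies at chr28:6776917-6776976. The first 30 bases of each are shown because the result rests on probes 2 and 3, which share no stretch of 16 bases, while probe 1 was near background:
GNG4 probe 1: tgcgtgacttcaaagatccatggttcagtt
GNG4 probe 2: ttacatcaagtgagaaacccggcaaagctg
GNG4 probe 3: acttgtggtttgtgcccttttctgtatgta
The second part of GNG4 probe 3, bases 30 to 59, holds the hexamer AATAAA, the usual polyadenylation signal, here in capitals:
GNG4 probe 3, second part: atgttgtacttcAATAAAaagtgtgcttag
AATAAA, searched for in the probe sequences as they are written in the files, was present in 3 of the 26 subunit probes (11.5%) and in 4083 of all 43653 probes (9.35%). Stretches of 16 bases were searched in both orientations across all probes. GNG4 probes 1 and 2 shared none with another gene, and GNG4 probe 3 shared 1 with a probe of BBS2, a gene of the primary cilium. That BBS2 probe differed by 0.11 ± 0.21 (SE, n = 3 and 3) on the log2 scale.

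Of the beta subunits, the probes below are shown because they read GNB2 and GNB4, which encode closely related proteins, and share no stretch of 16 bases with each other. They begin at bases 925 and 998 of their transcripts:
GNB2 probe 1: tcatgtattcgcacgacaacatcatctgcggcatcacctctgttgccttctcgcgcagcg
GNB4 probe 1: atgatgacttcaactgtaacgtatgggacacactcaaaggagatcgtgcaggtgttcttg
The 60 bases of GNB4 probe 1 are spread over 3296 bases of the genome, at chr1:90110992-90114287. Probes 2 and 3 of GNG11 overlap by 55 bases and are therefore not independent readings. Within the overlap they differ at C15A and C44A, counted from 1 at the 5′ end of probe 2, with the base of probe 2 first. The first of these is in capitals below, in bases 6 to 35 of probe 2 and bases 1 to 30 of probe 3:
GNG11 probe 2: gcatgacacCcctctttcagtatattgctt
GNG11 probe 3: gcatgacacAcctctttcagtatattgctt

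Each level below is the log2 of a probe's processed intensity minus the log2 of the 75th percentile of its array, so that 0 is the brightness of the 75th percentile. Levels are compared between animals for 1 probe and not between probes. Percentiles ranged from 611 to 1065 intensity units and the share of probes well above background from 58.4 to 63.4% over the 6 arrays. Precision is limited by the number of arrays. The fat-1 arrays were all on slide 1 and the wild type arrays on slide 2, and in every difference below the slide cannot be told apart from the group. The 9 measured markers of all leukocytes, a check of the tissue, had a median difference of 0.03 and mean levels between 5.77 and 6.12. In whole blood, fewer cells of a type and less RNA per cell cannot be told apart.

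GNG4 was detected well above background at probes 2 and 3 in the 3 fat-1 animals and in no wild type animal. At probe 2 the fat-1 levels were −1.0, −2.31 and −1.58, and the wild type levels were −5.74, −6.12 and −6.36. At probe 3 the fat-1 levels were −1.20, −2.45 and −1.76, and the wild type levels were −5.57, −6.82 and −6.55. The groups stood apart at both probes, with fat-1 replicate 1 highest and fat-1 replicate 2 lowest among the transgenic animals each time. Over the 6 arrays the pair correlated at r = 0.994, as a description of probes read on the same arrays.

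**Figure D1:**
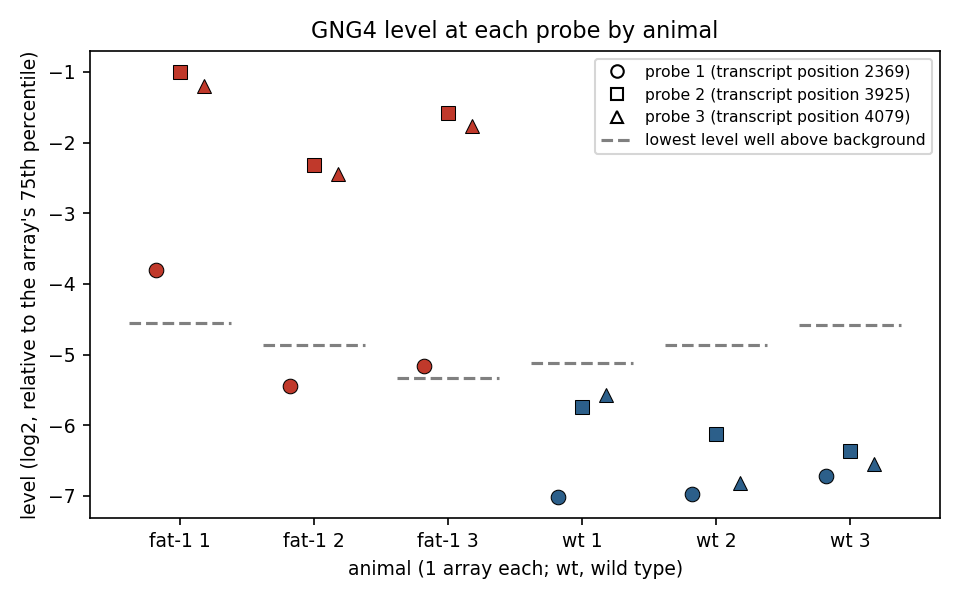
GNG4 level (log2, with the array's 75th percentile as 0) at each of its 3 probes in each animal, fat-1 in red and wild type in blue, with the lowest level well above background on that array as a dashed line. Probes 2 and 3 lie above the line in the 3 fat-1 animals and below it in the 3 wild type animals, while probe 1 is above it in fat-1 replicates 1 and 3 and has the well-above-background flag in 1 fat-1 animal. Heights are not comparable between probes.

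The mean level of GNG4 probe 2 was −1.63 ± 0.65 (SD, n = 3) in fat-1 and −6.07 ± 0.31 in wild type, a difference of 4.44 ± 0.34 (SE). For GNG4 probe 3 the means were −1.80 ± 0.63 and −6.31 ± 0.66, a difference of 4.51 ± 0.41. No wild type array had GNG4 well above background, so the size of these differences is uncertain. A fold against a floor is given beside them. Against that floor, the fat-1 mean of GNG4, as processed, was 9.33-fold higher at probe 2 and 8.28-fold higher at probe 3. This fold takes no account of the spread of the fat-1 animals. Differences after normexp correction, given below, were smaller than it. The floor is the lowest level well above background on each wild type array, −5.12, −4.86 and −4.58. The probe's own level was used where that was higher. A probe without the flag can lie above such a level, as GNG7 probe 2 did at −4.51 in wild type replicate 1. The fold is therefore no strict limit.

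The raw signals show how far the dim group sat from its surroundings. At GNG4 probe 2 the raw mean intensity was 448, 213 and 443 in fat-1 and 60.8, 55.5 and 69.5 in wild type, beside a local background of 29 to 36.5 units. At GNG4 probe 3 it was 335, 171 and 337 in fat-1 and 58.2, 47.0 and 48.6 in wild type. The lowest fat-1 value was thus above the highest wild type value before any correction. On 2 wild type arrays the processed value of GNG4 probe 3 was the scanner software's surrogate for a spot near background. With normexp background correction, which adds an offset of 50 to every intensity, the differences were 1.68 at probe 2 and 1.51 at probe 3, and the groups did not overlap at either. GNG4 probe 3 was then no longer past the adjusted threshold, while probe 2 was.

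GNG4 probe 1 was too dim to be tested. Its levels were −3.80, −5.44 and −5.16 in fat-1 and −7.01, −6.97 and −6.72 in wild type, and only fat-1 replicate 1 had the well-above-background flag there. The groups did not overlap, with the processed value a surrogate on every wild type array. Against the floor the fat-1 mean was 1.04-fold higher, close to no difference.

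Of the 26 subunit probes, 23 of 9 genes were measured well enough to enter the fit, being well above background on at least 3 arrays. Past an adjusted p of 0.05 over all 26823 probes fitted, 2 of these 23 were called higher in fat-1, both of GNG4 (1 with normexp correction), and 0 lower. Over all probes 0.171% were called, 0.0783% higher and 0.0932% lower, and GNG4 was chosen on this contrast. Animals of the groups did not overlap at 3 subunit probes that were higher in fat-1 (of GNG4 and GNB4) and at 4 that were lower (of GNG5 and GNG11). Over all probes the groups did not overlap at 19.6%, higher in fat-1 at 6.92% and lower at 12.7%. Differences were above 0 at 8 of the 23 subunit probes and at 44.6% of all probes. At least 2-fold differences occurred at 4 subunit probes, of GNG4 and GNB4, and at 4.97% of all probes. All 4 also had an unadjusted p under 0.05, and 4.06% of all probes had both such a p and at least that fold. The GNG4 probes among the 4 were chosen on this contrast and passed the filter through the fat-1 arrays only. These counts of subunit probes are therefore a description and no test of an excess over all probes.

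**Figure D2:**
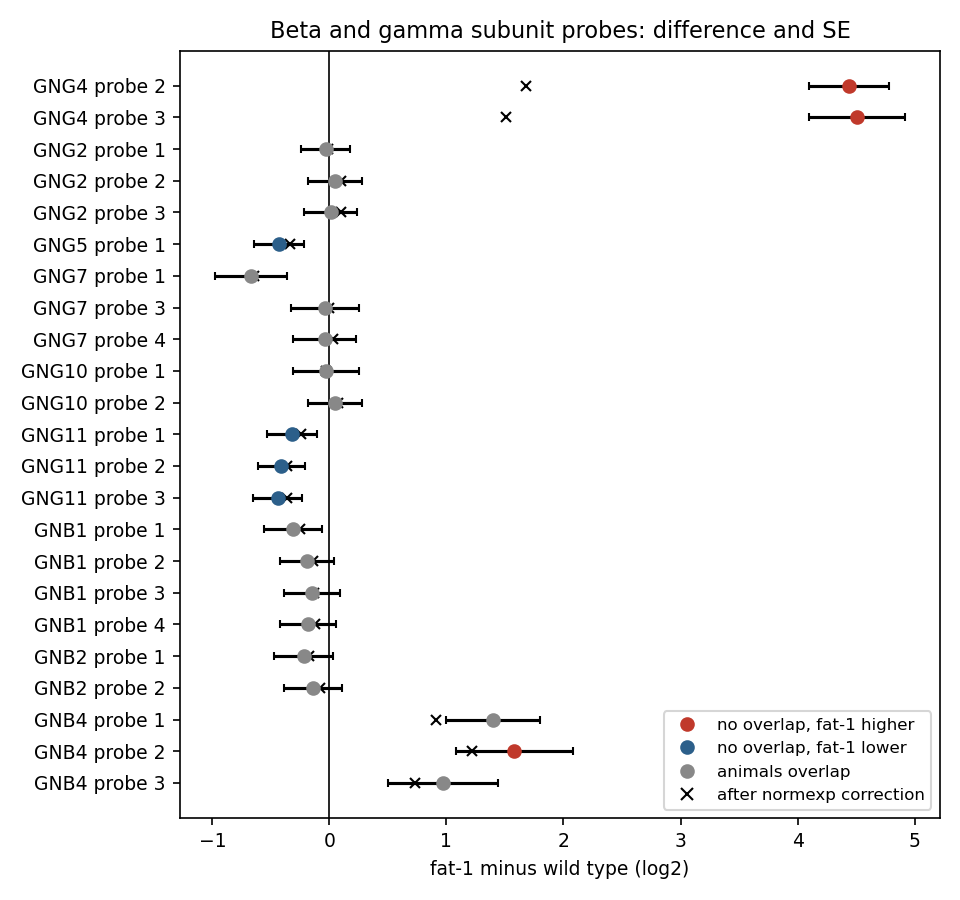
Difference between fat-1 and wild type (log2, points, with the SE of the fit as bars, n = 3 and 3) at the 23 subunit probes measured, coloured by whether the animals of the groups overlap, and the difference after normexp background correction as crosses. GNG4 lies at 4.44 and 4.51 and moves to 1.68 and 1.51, GNB4 lies between 0.97 and 1.58, and every other probe lies between −0.67 and 0.05.

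Among the other gamma subunits, GNG2, a common partner of GNB1, was bright and even across the animals. Its levels at probe 1 were 1.74, 2.01 and 2.09 in fat-1 and 1.87, 2.17 and 1.91 in wild type. GNG2 differed by −0.03 ± 0.21, 0.05 ± 0.23 and 0.01 ± 0.23 (SE) at its 3 probes, which lie between 45131858 and 45132113 on the plus strand of chromosome 10. The groups overlapped at each. The 3 probes of GNG2 correlated with each other at r of 0.898 to 0.988, so the small differences between animals were shared by the probes.

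GNG10, a gamma subunit found in many tissues, also overlapped between the groups. Its probe 2 stood at 2.40, 2.11 and 2.51 in fat-1 and at 2.37, 1.99 and 2.50 in wild type, with replicate 2 lowest in either group. The differences of GNG10 were −0.03 ± 0.28 at probe 1 and 0.05 ± 0.23 at probe 2. The files give no position for either probe.

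GNG7, known from the striatum, gave different readings by probe. At GNG7 probe 1, chr7:19811492-19811551, the levels were −0.41, −0.57 and −1.21 in fat-1 and 0.17, 0.21 and −0.56 in wild type, a difference of −0.67 ± 0.31 with overlapping animals. At probes 3 and 4, which lie next to each other about 3 kilobases downstream, GNG7 differed by −0.04 ± 0.29 and −0.04 ± 0.27. Fat-1 replicate 3 and wild type replicate 3 were the lowest of their groups at each of these 3 probes. GNG7 probe 2 was dim, well above background in 2 fat-1 animals and no wild type animal. Its levels were −3.77, −4.76 and −4.89 in fat-1 and −4.51, −4.77 and −4.68 in wild type, so the groups overlapped. The order of the GNG7 probe 2 means turned with normexp correction, to −3.20 in fat-1 and −2.82 in wild type, and no fold is given.

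GNG5, a widely expressed gamma subunit with 1 probe at chr3:63570088-63570147, was lower in each fat-1 animal than in any wild type animal. Its levels were 4.58, 4.76 and 4.89 in fat-1 and 5.27, 5.27 and 4.99 in wild type, a difference of −0.43 ± 0.21. The gap between the groups was narrow, from fat-1 replicate 3 to wild type replicate 3. With quantile scaling GNG5 differed by −0.24 and the groups overlapped.

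GNG11, the farnesylated subunit of platelets, lay lower in fat-1 at all 3 probes, on chromosome 4 between 11481225 and 11481554. At probe 1 the levels were 5.48, 5.04 and 5.29 in fat-1 and 5.49, 5.67 and 5.62 in wild type. At probe 2 they were 6.98, 6.77 and 6.70 against 7.18, 7.32 and 7.17, and at probe 3 they were 7.35, 7.02 and 7.03 against 7.53, 7.68 and 7.52. The groups did not overlap at any of them, although at probe 1 fat-1 replicate 1 came within 0.01 of wild type replicate 1. The differences of GNG11 were −0.32 ± 0.21, −0.41 ± 0.20 and −0.44 ± 0.21. With quantile scaling they were −0.12, −0.17 and −0.20, and the groups overlapped at all 3 probes.

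GNG5 and GNG11 were read by bright probes, and bright probes as a whole lay slightly lower in fat-1 under the percentile scaling. Of the 2046 probes with a mean level of at least 4, the median difference was −0.22, 83.6% lay below 0 and 21.1% were lower in fat-1 with no overlap. Quantile scaling brought that median to −0.02. The 8 subunit probes this bright, of GNG5, GNG11, GNB1 and GNB2, all lay below 0. The 9 measured platelet markers had a median difference of 0.51, with 9 above 0, and of 0.41 with normexp correction, with 7 above 0. VWF, the carrier of coagulation factor VIII, failed the background flag on all wild type arrays. Against the floor it was 2.80-fold higher in fat-1 (0.41 on the log2 scale with normexp correction). GP5, a platelet membrane glycoprotein well above background in 1 wild type animal, differed by 1.57, and by 0.15 with normexp correction. Mean platelet marker levels were between −0.49 and 0.24 in fat-1 and between −1.14 and −0.35 in wild type, overlapping between the groups. None of these markers passed an adjusted p of 0.05 (lowest 0.266), and their part in the GNG11 result was not tested.

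**Figure D3:**
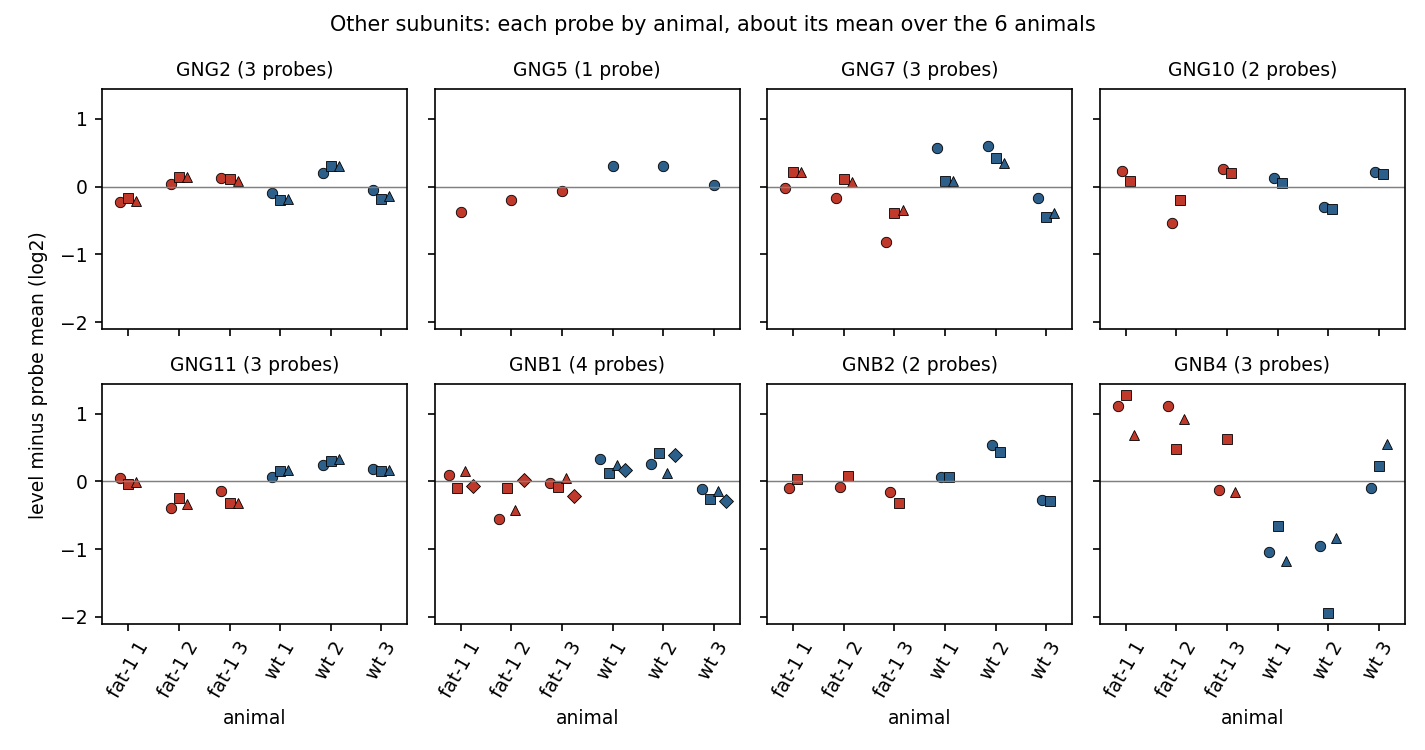
Level of each measured probe of the other 8 subunit genes in each animal, minus that probe's mean over the 6 animals (log2), fat-1 in red and wild type in blue, with a marker shape for each probe of a gene. GNG2, GNG10, GNB1 and GNB2 overlap between the groups, GNG5 and GNG11 sit slightly lower in fat-1 (by 0.32 to 0.44), and GNB4 spreads over the widest range, with wild type replicate 3 nearest to the fat-1 animals.

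The beta subunits GNB1 and GNB2, the common beta subunits of blood cells, overlapped between the groups at every probe. GNB1 probe 2 stood at 4.72, 4.73 and 4.74 in fat-1 and at 4.95, 5.24 and 4.56 in wild type. GNB1 differed by −0.31 ± 0.25, −0.19 ± 0.23, −0.15 ± 0.24 and −0.18 ± 0.24 at its 4 probes, on the plus strand of chromosome 16. At probes 2 and 4 the difference was 0.00 and 0.03 with quantile scaling. Correlations between GNB1 probes ranged from 0.335 to 0.970 over the 6 arrays, so not all probes of this gene gave the animals the same order.

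GNB2 probe 1, chr25:38021317-38021376, stood at 4.29, 4.31 and 4.24 in fat-1 and at 4.46, 4.93 and 4.11 in wild type. The fat-1 animals lay inside the range of the wild type animals. GNB2 differed by −0.22 ± 0.25 there and by −0.14 ± 0.25 at probe 2.

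GNB4, a close relative of GNB1, showed the widest spread of the beta subunits and the highest differences after GNG4. At probe 1 the levels were −0.21, −0.21 and −1.45 in fat-1 and −2.36, −2.27 and −1.42 in wild type. At probe 2, chr1:90114884-90114943, they were 0.53, −0.28 and −0.13 against −1.41, −2.69 and −0.53. At probe 3, chr1:90116081-90116140, they were 0.43, 0.66 and −0.41 against −1.44, −1.09 and 0.30. Wild type replicates 1 and 2 were low at every probe, while wild type replicate 3 was level with fat-1 replicate 3 at probe 1 and within the fat-1 range at probe 3. The groups were apart only at GNB4 probe 2.

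The differences of GNB4 were 1.40 ± 0.40, 1.58 ± 0.50 and 0.97 ± 0.47 at probes 1 to 3, with every probe well above background in all 6 animals. None was called under any setting tried. Wild type replicate 3 set much of the spread of GNB4, since without it the differences were 1.69, 2.09 and 1.49. Without wild type replicate 2, which was lowest at probe 2, they were 1.27, 1.01 and 0.80. The 3 probes correlated at r of 0.759 to 0.920.

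GNB5, the beta subunit of neurons and retina that pairs with RGS proteins of the R7 family, did not rise well above background in a single animal. Its only probe, chr10:60370141-60370200, gave intensities of 5.27 to 9.19, each a surrogate value, so no difference is given.

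Other genes of the pathway were taken from lists of 91 genes, of which 85 were on the array and 61 were measured, each by its brightest probe. None was called at an adjusted p of 0.05 by limma (lowest adjusted p 0.243), and at an unadjusted p under 0.05 there were 3 higher and 4 lower in fat-1, 11.5% of the 61. The groups did not overlap for 2 genes higher in fat-1 (3.28%) and 7 lower (11.5%). The median difference was −0.10 with 60.7% below 0, beside a median of −0.06 over all probes, of which 44.6% lay above 0. Over all probes 12.8% passed an unadjusted 0.05, with fat-1 higher at 6.15% and lower at 6.68%. The shares of the 61 genes past that threshold were thus not above those of all probes. Shares past the unadjusted threshold within single lists varied and are given below.

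The remaining beta and gamma subunits were measured for 4 of 7 genes, with a median of −0.37 and none past either threshold. GNGT2, the cone transducin gamma subunit, differed by −0.45 ± 0.25, and GNB3, which pairs with it in cones, by −0.39 ± 0.27. GNG3, a neuronal gamma subunit, differed by −0.35 ± 0.28. GNG12 differed by 0.61 ± 0.37 at its brighter probe, which was well above background in 2 wild type animals, and by 0.97 at its other probe. With normexp correction the brighter GNG12 probe turned to −0.25. GNG8, GNG13 and GNGT1, of sensory cells, were not well above background on enough arrays.

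Alpha subunits were measured for 9 of 16 genes, with a median of −0.03. At an unadjusted p under 0.05, 1 (11.1%) was higher, beside 6.15% of all probes, and 0 lower. GNAI1, an inhibitory alpha subunit, passed the background flag in 3 fat-1 animals and no wild type animal. Its levels were −3.98, −3.51 and −3.24 in fat-1 and −4.63, −5.95 and −4.55 in wild type, with no overlap. The difference of GNAI1 was 1.46 ± 0.40 (limma, adjusted p = 0.243), the fold against the floor was 2.14, and normexp correction gave 0.08. GNAS, the stimulatory alpha subunit, differed by −0.30, GNAI3 by 0.33 and GNAO1, the neuronal alpha subunit, by −0.38.

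Of RGS proteins, which speed up GTP hydrolysis, and other regulators of G proteins, 14 of 24 were measured, with a median of −0.11. At an unadjusted p under 0.05, 2 (14.3%) were higher and 1 (7.14%) lower, beside 6.15% and 6.68% of all probes. GPSM1, which holds inhibitory alpha subunits in their GDP form, differed by −0.80 ± 0.25 (limma, adjusted p = 0.311). GPSM2, its relative in spindle orientation, differed by 0.67 ± 0.24, and by 0.08 after normexp correction. RGS18, of platelets and myeloid cells, gave 0.59 ± 0.25 at its brightest probe and −0.47 at its other probe, so its probes disagreed in sign. RGS1, of activated lymphocytes, differed by −0.87 ± 0.38.

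Effectors of the beta-gamma dimer were measured for 13 of 21 genes, with a median of −0.23, 10 below 0. Of the 13, 5 (38.5%) were lower in fat-1 with no overlap, beside 12.7% of all probes. At an unadjusted p under 0.05, 2 (15.4%) were lower, beside 6.68%. These counts depend on the use of each gene's brightest probe. Some of the 5 differed by −0.30 at that probe and had other probes above 0, at 0.10 to 0.27. CACNA1A, the pore of the P/Q-type calcium channel, stood at 0.47, 0.65 and 0.70 in fat-1 and at 1.18, 2.09 and 1.27 in wild type, a difference of −0.91 ± 0.28 (limma, adjusted p = 0.295). KCNJ9, a potassium channel opened by the dimer, differed by −0.56 ± 0.24. PIK3CB, the phosphoinositide 3-kinase beta catalytic subunit, differed by 0.58 ± 0.26, and its other 4 probes by 0.46 to 0.87. Effectors of either direction were therefore present, with none past the adjusted threshold.

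**Figure D4:**
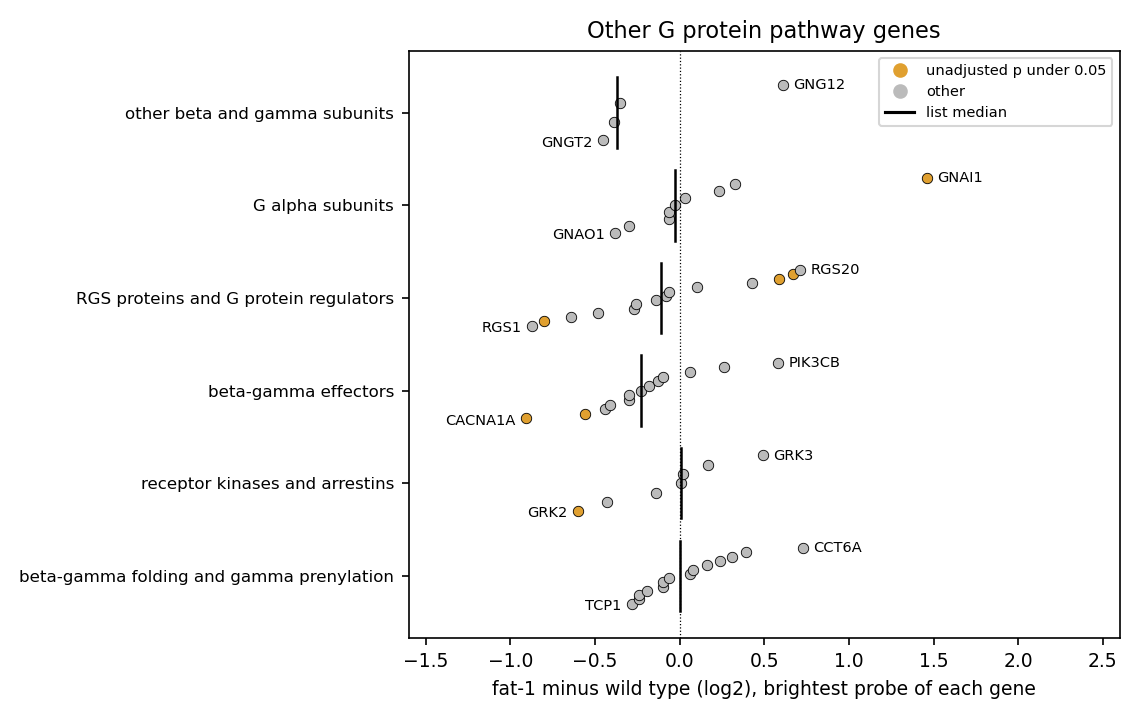
Difference between fat-1 and wild type (log2) of the 61 measured pathway genes that are not among the 10 subunits, each by its brightest probe, in 6 lists, with the list median as a bar, orange where the unadjusted p was under 0.05 and grey otherwise. Medians lie between −0.37 and 0.01, and GNAI1 at 1.46 and CACNA1A at −0.91 are the outermost genes.

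Receptor kinases and arrestins, which end signalling, were measured for all 7 genes, with a median of 0.01. At an unadjusted p under 0.05, 1 (14.3%) was lower, beside 6.68% of all probes, and 0 higher. GRK2, which the free dimer recruits to the membrane, differed by −0.60 ± 0.25 (limma, adjusted p = 0.379), with overlapping animals. GRK3, its closest relative, differed by 0.49, GRK6 by −0.43 and GRK4 by 0.17 (−0.06 with normexp correction). Of chaperones that fold beta subunits and enzymes that prenylate gamma subunits, 14 of 16 were measured, with a median of 0.00 and none past either threshold. CCT6A differed by 0.73 ± 0.35, CCT8 by 0.39, TCP1 by −0.28 and CCT7 by −0.24, all subunits of the chaperonin that folds the propeller.

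Marker lists of blood cells, with their members' mean level per animal, were read beside GNG4. Of 11 listed markers of gamma-delta T cells, a large population in cattle, 4 were measured. All 4 were lower in fat-1 with no overlap, beside 12.7% of all probes, with a median of −1.48. The summed level of that list, as a mean per gene, was −1.85, −0.29 and −0.54 in fat-1 and 0.47, 0.87 and 0.41 in wild type. SOX13, a transcription factor of these cells, differed by −1.50 and WC1.3, their scavenger receptor, by −1.52. SOX13 was well above background in only 2 fat-1 animals. Another of the 4 markers differed by −1.45 at its brightest probe and by 0.26 at its other probe. All 4 had an unadjusted p under 0.05, beside 6.68% of all probes lower. None passed the adjusted threshold (limma, lowest adjusted p 0.144).

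Natural killer markers had a median of 0.28 over 10 genes (0.02 with normexp correction), with KLRC1 at 1.99 and KLRB1 at −1.35, both lectin-like receptors, and monocyte markers 0.27 over 10 genes, with CX3CR1, a chemokine receptor, at 0.69. B cell markers had a median of −0.29 over 8 genes, alpha-beta T cell markers −0.16 over 10 genes and neutrophil markers 0.05 over 9 genes. In those lists BLK, a kinase of B cells, differed by −0.85, CD3E of the T cell receptor by −0.60 and FCGR3A, an Fc receptor, by 0.83. Other probes of FCGR3A differed by 0.27 and 0.29. Red cell markers had a median of 0.94 over 9 genes, and of 0.25 with normexp correction. Both named ones are proteins of the red cell membrane. EPB42 differed by 1.35 (0.43 with normexp correction), and by 0.06 and 1.87 at its other probes. SLC4A1, not well above background in any fat-1 animal, was 1.46-fold lower in fat-1 against the floor of the fat-1 arrays. None of these genes was called.

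Because GNG4 is best known from neurons, neuronal markers were read too. Of the 10 neuronal markers 5 were measured, with a median of −0.43 and all 5 below 0, beside 44.6% of all probes above 0. The groups did not overlap for 4 of the 5, all lower in fat-1, beside 12.7% of all probes. None was called (limma, lowest adjusted p 0.144). RBFOX3, a splicing factor, differed by −1.70 and TUBB3, a tubulin, by −1.26. SYT1, STMN2, NEFL, NEFM and ELAVL4 were not well above background on enough arrays. The part of any of these cell types in the GNG4 result was not tested.

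The genes whose level followed GNG4 probe 2 most closely were sought among 10977 gene symbols, by Pearson's r over the 6 arrays. They were SH3GL3, an endophilin, at r = 0.997, ILDR1, a protein of tricellular junctions, at 0.995, CA5A, a mitochondrial carbonic anhydrase, at 0.992, OAS1X, of the interferon-induced oligoadenylate synthetase family, at 0.990, and FIBIN, a secreted protein, at 0.989. The 6 values of GNG4 fall into 2 separate clusters, the groups, which also differ by slide, and r of 0.95 or above was reached by 51 symbols. These values are therefore a description. Differences were 2.66 ± 0.28 for SH3GL3, 0.94 ± 0.20 for ILDR1 and 1.44 ± 0.20 for FIBIN, each well above background in all animals. With normexp correction they were 1.77, 0.46 and 0.42. SH3GL3 ordered the fat-1 animals as GNG4 did, at −0.28, −1.12 and −0.52, against −3.01, −3.52 and −3.36 in wild type. CA5A and OAS1X, like GNG4 probe 2, passed the background flag in 3 fat-1 animals and no wild type animal. CA5A differed by 2.38, and by −0.01 with normexp correction. OAS1X differed by 5.35, and by 1.91 with normexp correction.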

How the data were processed

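Total RNA of 6 animals, 3 per group, was labelled with Cy3 and hybridised to 1-colour bovine arrays, per the labels' protocols. Spots were read with Agilent Feature Extraction 10.7.1.1 according to the submitters' processing notes, and the deposited files hold their intensity. Processed intensity is background-subtracted, with a surrogate value for spots near background, and is not scaled between arrays, per the file headers. Other flags used, well above background, saturated and outlying, are 0 or 1 as deposited. The authors' value table is on the log2 scale, with a median of 6.38 in every deposited column. The correlation of a column was 0.999 or above with its own array and 0.986 or below with others, so it was read as log2 intensity after quantile scaling. The sources used here do not name the tool behind it.

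Here log2 processed intensity was reduced by each array's 75th percentile. Outlying spots were dropped, which left out 32 probes, and a probe was kept if at least 3 of 6 arrays had it well above background (26823 probes). No subunit spot was saturated. Groups were compared in R 4.3.3 with limma 3.58.1 (lmFit, then eBayes), with Benjamini-Hochberg adjustment over all probes kept, at a threshold of 0.05. Replicates are separate samples per the labels, 1 array each. Probes were named by accession through RefSeq's gene table for ARS-UCD2.0 (22205 probes), by symbol (9847), older symbol (372) or the file's name (516), and 10713 stayed unnamed. Subunit probes were those named for a member in the files' gene name or description.

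Where no array of a group was well above background, a fold is given against the floor. The floor is the lowest level well above background on an array, or the probe's own level where higher. The fold uses the group mean as processed, without the spread between animals, and is no strict limit. Normexp correction can give a smaller difference. The genes, lists and naming rule were chosen with earlier results of these data known. Named are every subunit, up to 4 genes with the smallest p in each pathway list (1 effector is not reported here), up to 2 in each marker list, and the 5 symbols most like GNG4. BBS2 and genes near GNG4 and GNB4 were chosen after their values were seen. Alternatives were quantile scaling, normexp background correction with an offset of 50, no filter, the authors' value table, an intensity trend in eBayes, the replicate number as a block, each array left out, and the mean of a gene's probes for pathway genes. The transgene was not analysed here.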

Additional observations from a re-analysis of the deposited data

How the results depend on the processing

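Of all probes, 46 were called, 16 with quantile scaling, 117 with normexp correction, 14 with no filter on dim probes, 16 with the authors' value table and 125 with an intensity trend, and with 1 array left out between 8 and 55, the extremes being without the first fat-1 animal and without the first wild type animal (12 and 13 without fat-1 replicates 2 and 3). The replicate number as a block gave 105 calls. Deviations of same-numbered animals correlated at 0.117, 0.185 and 0.00583. For replicates 1 and 2 this was the highest value of either animal, while fat-1 replicate 3 correlated best with wild type replicate 1. These values do not settle whether the numbers pair the animals, and the main fit has no pairing. Pathway genes called were 0 under every alternative, the block included.

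GNG4 differed by 4.44 at probe 2 and by 1.68 with normexp correction, and at probe 3 by 4.51 and by 1.51, where probe 3 was no longer called. With 1 array left out the GNG4 difference ranged from 4.13 to 4.78 at probe 2 and from 4.21 to 4.88 at probe 3. Both probes were called each time. GNG4 was chosen on this contrast, and its probes passed the filter through the fat-1 arrays only. These repeated calls are therefore no separate support. Of 276 recomputed subunit differences (12 alternatives for 23 probes), 266 stayed within 1 SD of the replicates and 10 did not. The sign changed in 33, and 12 probes, those of GNG4, GNB4, GNG5 and GNG11 among them, kept theirs throughout. Signal over background limits GNG4 in wild type, GNB5 and the dim probes of GNG4 and GNG7.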

Other observations

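Genes beside GNG4 and GNB4 on the chromosome were read in windows of 300 kilobases, chosen after the subunit values were seen. Within the window around GNG4 on chromosome 28, 9 of 11 probes were measured and all 9 lay above 0, between 0.27 and 0.82, beside 44.6% above 0 over all probes. GGPS1, which makes the geranylgeranyl lipid that anchors most gamma subunits, differed by 0.65, 0.77 and 0.82 at its 3 probes, of which the last 2 overlap, as do 2 of TBCE. TBCE, a tubulin folding cofactor, differed by 0.45, 0.46 and 0.46 and B3GALNT2, a glycosyltransferase, by 0.27. The groups did not overlap at 3 of these 9 probes, beside 6.92% of all probes higher in fat-1 with no overlap. None was called (limma, lowest adjusted p 0.249). An unadjusted p under 0.05 was reached by 2, the overlapping GGPS1 probes, beside 6.15% of all probes higher in fat-1. Several probes read the same gene, so they are not independent.

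Around GNB4 on chromosome 1, 10 of 14 probes were measured, 8 above 0 and 2 below, and none was called. PIK3CA, the phosphoinositide 3-kinase alpha catalytic subunit, differed by 0.95 and MFN1, of mitochondrial fusion, by 0.82 and 0.47. ZNF639, a zinc finger protein, differed by 0.04 and 0.11, and the probes of TCP1, placed here on this build, by −0.28 and −0.18.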
